A study of Mus musculus with 4 samples.

Results

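Nucleotide and one-carbon synthesis genes are the 34 enzymes that build purines, pyrimidines and deoxynucleotides and run the folate cycle, and all 34 were found among the 46095 gene symbols of the count table. They were taken by name, in 7 groups by the step they serve. The rule uses no measured value, but the genes were picked with earlier results of these data known. RNA of whole stomach was sequenced from 2 WT and 2 MYC-KI samples of C57BL/6 mice at 12 weeks of age. MYC-KI mice are *Atp4b-cre; Myc fl/+* (labelled Atp4b-cre;MycOE), in which Cre under the promoter of *Atp4b*, a proton pump gene of parietal cells, turns on *c-Myc* in the parietal lineage, and the WT mice are *Myc fl/fl* controls that carry the floxed transgene without Cre. The labels do not say how many animals stand behind a sample, so p-values measure the spread between these samples only.

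Cells make purines on a phosphoribosyl pyrophosphate backbone, atom by atom, until inosine monophosphate (IMP) is reached, and AMP and GMP branch from there. Pyrimidines are first closed into a ring and then joined to the same sugar, giving UMP, from which CTP and the thymidine nucleotides follow. Folate carries the single carbons that the purine ring and thymidylate need, most of them from serine, and dividing cells draw on all of these routes. Several of these enzymes are textbook targets of MYC.

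In the deposited table the MYC-KI counts are out of register with the gene names, so they were first set against the names in character-code order, row by row, while the WT counts stayed in place. Between the genotypes, Pearson's r of mean log2(count + 1) was 0.524 before this step and 0.985 after it (over genes, which share libraries and are no replicates). Around each member, r over the 61 surrounding names lay between 0.928 and 0.993 after it, against a median of 0.122 before. *Ctps*, *Ctps2*, *Dut* and *Dtymk* stand in the same row under both orders, so the counts of these 4 members do not depend on the step. With the table as deposited, 12 members were called higher and 15 lower, against 42.7% and 41.5% of all 22083 genes tested there, so these counts lie near those of any genes.

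Library totals ran from 30260305 to 41463647 counts. WT replicate 1 and both MYC-KI samples had Y-linked *Ddx3y* counts of 1861 to 2623, and WT replicate 2 had 5 of them and 17846 of *Xist*, so it alone carries the mark of the other sex. All 8 parietal markers were called lower in MYC-KI, their summed level falling from 11330 and 11470 CPM (counts per 1e6 of the TMM-scaled library) to 355 and 438, and so were 4 of 5 chief cell and 5 of 6 surface mucous cell markers, while 7 of 13 proliferation markers were called higher (summed level 608 and 549 CPM in WT, 941 and 843 in MYC-KI). In bulk tissue fewer cells of a type and less RNA per cell cannot be told apart, and the part of this shift in the values below was not tested. Leukocyte markers summed to 246 to 269 CPM in all 4 samples, but 3 of 10 tested were called higher and 3 lower. The higher ones were the mast cell proteases *Mcpt1*, *Mcpt2* and *Cma1* (means of 3.59, 8.66 and 3.15 CPM in WT and 87.4, 65.9 and 8.20 in MYC-KI), and the lower ones the myeloid genes *Lyz2*, *Itgam* and *Csf1r* (139, 13.1 and 61.4 CPM in WT and 46.1, 3.84 and 20.9 in MYC-KI). Of the pancreatic acinar markers *Prss1* and *Cpa1* were at 0 throughout and 4 of 5 tested were lower. Of 6 mucous neck and metaplasia markers 3 were called higher. Calls on these marker lists stand against 5.65% higher and 5.08% lower of all tested genes, by the rule given below. Squamous and smooth muscle markers had no call by edgeR, with 1 squamous marker higher at an unadjusted p under 0.05 and called by DESeq2. Squamous epithelium markers differed by library and summed to 4122 CPM in MYC-KI replicate 2 against 812 to 2420 elsewhere. So did genes of skeletal muscle, at 1556 CPM in MYC-KI replicate 2 against 17.5 to 160.4 elsewhere. Genes of liver summed to 658 CPM in WT replicate 2 against 33.8 to 105.8. The *Myc* row was lower in both MYC-KI samples, at 21.7 and 24.4 CPM against 31.7 and 27.2 CPM in the WT samples, and was not called (log2 fold change -0.35 ± 0.14 SE, adjusted p = 0.163). The paper describes the transgene as human *c-Myc*, and the processing notes name the mouse build mm10. Whether reads of the transgene were counted in the *Myc* row is not given in the sources used here, so this row does not check the labels. By RT-qPCR, western blotting and immunostaining the paper reported *c-Myc* overexpression in the stomach of these transgenic mice.

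The genes of these pathways were on balance higher in MYC-KI stomach. Of the 34 members, 16 (47.1%) were called higher and 1, *Prps2*, lower, where a call needs an adjusted p under 0.05 over all 17643 tested genes (edgeR's quasi-likelihood test, Benjamini-Hochberg adjustment) and a fold change above 1.5 in that direction. Of all tested genes, 5.65% were called higher and 5.08% lower. The median log2 fold change of the members was 0.63 and that of all tested genes 0.012, and 30 of 34 members had a positive value. Together they took up 1706 and 1684 CPM in WT and 2560 and 2392 in MYC-KI. In 28 members both MYC-KI samples lay above both WT samples, an arrangement found in 33.3% of all tested genes. Without the fold threshold 17 members were higher, with *Adsl* added, against 6.98% of all genes. The calls needed both WT samples: without WT replicate 1 or without WT replicate 2, the fit on the 3 remaining samples called no gene of the whole table, although 19 and 17 members, respectively, were higher at an unadjusted p under 0.05 (9.89% and 9.97% of all tested genes). In these fits the replicate spread came from the MYC-KI pair alone, and the median of the members was 0.66 and 0.59. Without MYC-KI replicate 1, 13 members were called higher and 1 lower (4.20% and 4.48% of all genes), and without MYC-KI replicate 2, 21 and 2 (5.82% and 7.69%). Scaling by library size alone raised the median of all genes by about as much as that of the members, to 0.23 and 0.85, and called 22 members and 12.9% of all genes higher.

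**Figure D1:**
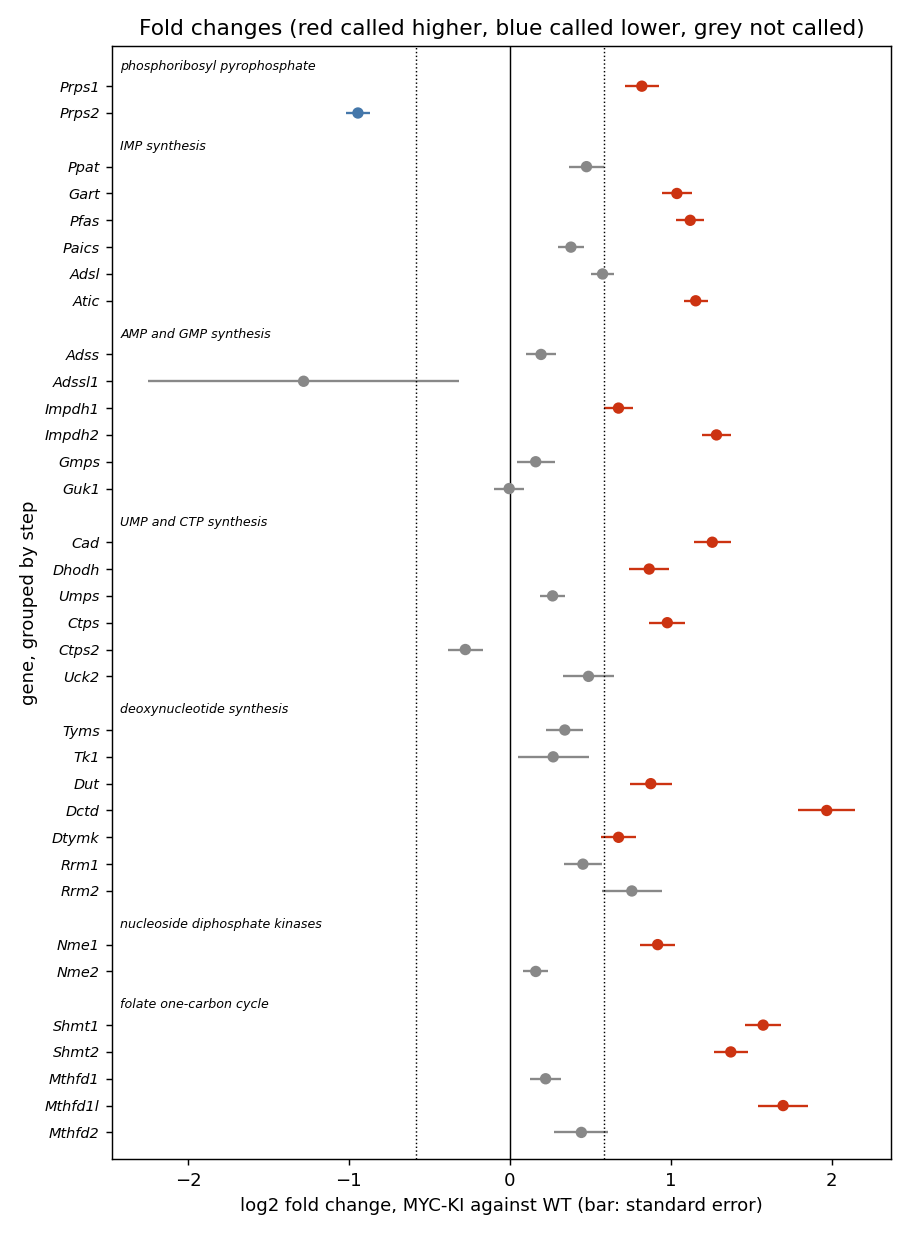
Log2 fold change of each of the 34 genes, MYC-KI against WT (x axis), with bars for the standard error, genes grouped by step (y axis); dotted lines mark the 1.5-fold threshold and colours the calls. The 16 red points lie between 0.68 and 1.97, the only blue point is *Prps2* at -0.94, and the bar of *Adssl1* is the widest.

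The supply of phosphoribosyl pyrophosphate is made by *Prps1* and *Prps2*, synthetases encoded on the X chromosome, and they moved in opposite directions. *Prps1* had 19.6 and 19.7 CPM in the WT samples against 35.6 and 33.8 CPM in the MYC-KI samples. Both MYC-KI samples were higher (log2 fold change 0.82 ± 0.11 SE, adjusted p = 0.0255). *Prps2*, the more abundant of the pair in WT stomach, had 114 and 118 CPM in WT and 59.9 and 60.7 CPM in MYC-KI and fell (log2 fold change -0.94 ± 0.074 SE, adjusted p = 0.0168). In neither gene did the genotypes overlap, and 33.3% of all tested genes had both MYC-KI samples above both WT samples. Of the 31-base words in *Prps1* transcripts, 18.5% also occur in *Prps1l3*, a copy of the gene on another chromosome, so its reads can be shared. Summed with *Prps1l3*, *Prps1* reached 2043 and 1791 counts in the WT samples against 3308 and 4308 in the MYC-KI samples, and still rose (log2 fold change 0.63, standard error 0.076, adjusted p = 0.0234 from edgeR).

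All 6 enzymes from phosphoribosyl pyrophosphate to IMP had higher values in MYC-KI. In each of them both MYC-KI samples lay above both WT samples, as in 33.3% of all tested genes. *Gart*, which carries 3 of the activities of the route on a single protein, had 56.1 and 62.3 CPM in the WT samples against 119 and 124 CPM in the MYC-KI samples (log2 fold change 1.04 ± 0.091 SE, adjusted p = 0.0183). *Pfas*, the amidotransferase that follows the formylation step, had 26.9 and 26.7 CPM in WT and 59.8 and 56.8 CPM in MYC-KI (log2 fold change 1.12 ± 0.085 SE, adjusted p = 0.0164). *Atic*, which adds the last carbon and closes the ring to IMP, had 60.9 and 60.6 CPM in the WT samples against 137 and 133 CPM in the MYC-KI samples (log2 fold change 1.16 ± 0.075 SE, adjusted p = 0.0140). These 3 genes formed the called part of the group. *Ppat*, the committed first step, had 41.1 and 40.1 CPM in WT and 61.0 and 51.96 CPM in MYC-KI and did not pass (log2 fold change 0.48 ± 0.11 SE, adjusted p = 0.0621). *Adsl*, the lyase that also serves the AMP branch, had 48.2 and 47.9 CPM in the WT samples against 72.3 and 70.9 CPM in the MYC-KI samples. It passed the adjusted p but at 1.49-fold stood just under the threshold of 1.5 (log2 fold change 0.58 ± 0.073 SE, adjusted p = 0.0251). *Paics*, bifunctional and the most abundant of the 6 per length in WT (37.9 CPM per kb of exon, mean), had 119 and 119 CPM in WT and 149.8 and 159 CPM in MYC-KI and was not called (log2 fold change 0.38 ± 0.079 SE, adjusted p = 0.0516). *Ppat* and *Paics* are transcribed from opposite strands with 272 bases of overlapping exon on chromosome 5, and the strand setting of the counting is not given in the sources used here, so reads of that overlap cannot be told apart. The same limit holds for 1014 of the 5144 exon bases of *Gart*, which *Gm15964* overlaps on the opposite strand, and for overlaps of 184 bases in *Shmt1*, 48 in *Impdh2* and 32 in *Shmt2* among the called members. Under scaling by library size *Ppat*, *Paics* and *Adsl* were called too, at 0.70, 0.60 and 0.80, and without MYC-KI replicate 2 *Ppat* and *Adsl* passed, both at 0.59.

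At the branch from IMP, the 2 IMP dehydrogenases, which set the rate of GMP synthesis, rose, and the other enzymes did not pass. *Impdh2* had 36.7 and 33.1 CPM in the WT samples against 83.3 and 86.7 CPM in the MYC-KI samples (log2 fold change 1.28 ± 0.091 SE, adjusted p = 0.0152). *Impdh1* had 41.3 and 39.03 CPM in WT and 67.1 and 61.2 CPM in MYC-KI (log2 fold change 0.68 ± 0.092 SE, adjusted p = 0.0279). *Impdh2* shares 43.2% of its 31-base words with the pseudogene *Impdh2-ps*, not analysed here, so its level is less certain than that of *Impdh1*, which shares none. *Gmps*, which aminates the product to GMP, had 60.4 and 58.5 CPM in the WT samples against 72.7 and 60.2 CPM in the MYC-KI samples. MYC-KI replicate 2 overlapped WT (log2 fold change 0.16 ± 0.12 SE, adjusted p = 0.397). *Guk1*, the kinase that takes GMP to GDP, had 56.7 and 56.2 CPM in WT and 59.8 and 52.8 CPM in MYC-KI. Its genotypes overlapped, and its sign changed with the scaling (log2 fold change -0.0038, adjusted p = 0.982 from edgeR, and 0.22 with library size alone). *Adss*, the first step to AMP in most tissues, had 117 and 121 CPM in the WT samples against 144 and 128 CPM in the MYC-KI samples (log2 fold change 0.19 ± 0.094 SE, adjusted p = 0.229).

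*Adssl1*, the muscle form of the same enzyme, had the widest spread of all members. Its counts were 600 and 476 in WT, 51 in MYC-KI replicate 1 and 572 in MYC-KI replicate 2 (log2 fold change -1.28 ± 0.97 SE, adjusted p = 0.412). The log2 fold change was -3.53 without MYC-KI replicate 2, where it passed the call, and -0.45 without MYC-KI replicate 1. The skeletal muscle gene *Acta1* ordered the MYC-KI samples the same way, with 51 and 23057 counts, against 1652 and 981 in WT, and smooth muscle markers summed to 2479 and 5270 CPM in MYC-KI and 7640 and 4827 in WT. The part of muscle content in the *Adssl1* values was not tested.

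Of the 6 genes of UMP and CTP synthesis 3 were called higher, and the entry enzyme had the largest log2 fold change of these 6. *Cad*, a single protein with the first activities of UMP synthesis, had 57.03 and 61.4 CPM in WT and 153 and 130.2 CPM in MYC-KI (log2 fold change 1.26 ± 0.12 SE, adjusted p = 0.0188). *Dhodh*, the dehydrogenase of the mitochondrial inner membrane that comes next, had 12.1 and 12.01 CPM in the WT samples against 22.4 and 21.5 CPM in the MYC-KI samples at a low level (log2 fold change 0.87 ± 0.13 SE, adjusted p = 0.0305). It lost the call without MYC-KI replicate 1 (adjusted p = 0.0535). *Umps*, which completes UMP, had 42.6 and 43.1 CPM in WT and 51.3 and 51.7 CPM in MYC-KI and was not called (log2 fold change 0.27 ± 0.077 SE, adjusted p = 0.0931). Its replicates were close in both genotypes, and the samples did not overlap. *Ctps*, which turns UTP into CTP, had 28.96 and 25.3 CPM in the WT samples against 55.4 and 51.7 CPM in the MYC-KI samples (log2 fold change 0.98 ± 0.11 SE, adjusted p = 0.0223). *Ctps2*, its X-linked relative, had 27.03 and 28.4 CPM in WT and 22.9 and 22.9 CPM in MYC-KI, lower in both MYC-KI samples but not called (log2 fold change -0.28 ± 0.11 SE, adjusted p = 0.158). *Uck2*, a kinase that salvages uridine and cytidine, had 135 and 144 CPM in the WT samples against 223 and 168 CPM in the MYC-KI samples. The MYC-KI samples were both above WT but far apart (log2 fold change 0.49 ± 0.16 SE, adjusted p = 0.117), and without MYC-KI replicate 2 *Uck2* passed at 0.68.

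The largest rise of all members was in the deoxynucleotide group. *Dctd*, the deaminase that turns dCMP into dUMP, was counted 206 and 217 times in WT and 951 and 1181 times in MYC-KI, that is 6.14 and 7.78 CPM in WT and 28.04 and 26.4 CPM in MYC-KI (log2 fold change 1.97 ± 0.18 SE, adjusted p = 0.0188). The values correspond to a 3.92-fold difference, and with any 1 sample left out the log2 value stayed between 1.81 and 2.15. *Dut*, which hydrolyses dUTP to dUMP, had 12.9 and 14.4 CPM in the WT samples against 25.2 and 24.9 CPM in the MYC-KI samples (log2 fold change 0.88 ± 0.13 SE, adjusted p = 0.0314). *Dtymk*, the kinase that takes dTMP to dTDP, had 24.2 and 22.3 CPM in WT and 38.2 and 36.02 CPM in MYC-KI (log2 fold change 0.68 ± 0.11 SE, adjusted p = 0.0344). Both lost the call without MYC-KI replicate 1, at adjusted p of 0.0532 and 0.0640. *Tyms*, the synthase that methylates dUMP to dTMP with folate carbon, lies between them in the route. It had 20.6 and 20.1 CPM in the WT samples against 26.6 and 24.96 CPM in the MYC-KI samples, above WT in both samples and not called (log2 fold change 0.34 ± 0.11 SE, adjusted p = 0.120). *Tk1*, the S phase thymidine kinase, had 14.4 and 10.9 CPM in WT and 16.95 and 13.5 CPM in MYC-KI, and its genotypes overlapped (log2 fold change 0.27 ± 0.22 SE, adjusted p = 0.445). Ribonucleotide reductase makes the deoxynucleotides themselves. Its large subunit *Rrm1* had 69.6 and 57.4 CPM in the WT samples against 85.6 and 88.5 CPM in the MYC-KI samples (log2 fold change 0.45 ± 0.12 SE, adjusted p = 0.0781). The S phase small subunit *Rrm2* had 24.7 and 19.8 CPM in WT and 42.3 and 33.2 CPM in MYC-KI. The fold change was past the threshold and the adjusted p was not (log2 fold change 0.76 ± 0.19 SE, adjusted p = 0.0702), while DESeq2 called *Rrm2* (0.75, adjusted p = 0.00755) and so did edgeR without MYC-KI replicate 2 (0.92, adjusted p = 0.0471).

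The nucleoside diphosphate kinases bring all of these nucleotides to the triphosphate. *Nme1* had 57.3 and 48.5 CPM in the WT samples against 99.5 and 100.4 CPM in the MYC-KI samples (log2 fold change 0.92 ± 0.11 SE, adjusted p = 0.0233). *Nme2*, the most abundant member per length (137.7 CPM per kb in WT), had 158 and 165 CPM in WT and 179 and 182 CPM in MYC-KI and was not called (log2 fold change 0.16 ± 0.077 SE, adjusted p = 0.225). The genes are neighbours on chromosome 11, and the read-through gene *Gm20390* contains 11.7% of the 31-base words of *Nme1* and 47.9% of those of *Nme2*, so the way shared reads were counted bears on *Nme2* more than on *Nme1*.

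The folate group had the highest median of the 7, at 1.37 on the log2 scale. *Shmt2*, the mitochondrial enzyme that takes a carbon from serine, had 36.9 and 31.8 CPM in the WT samples against 90.7 and 87.2 CPM in the MYC-KI samples (log2 fold change 1.37 ± 0.11 SE, adjusted p = 0.0168). *Shmt1*, which does the same in the cytosol, had 25.3 and 22.7 CPM in WT and 75.6 and 67.3 CPM in MYC-KI (log2 fold change 1.57 ± 0.11 SE, adjusted p = 0.0152). *Mthfd1l*, the synthetase that releases formate from mitochondria, had 11.5 and 9.64 CPM in the WT samples against 36.5 and 32.2 CPM in the MYC-KI samples (log2 fold change 1.70 ± 0.16 SE, adjusted p = 0.0188). In these 3 genes the lowest MYC-KI value was more than 2 times the highest WT value. *Mthfd1*, the trifunctional cytosolic enzyme that takes formate up again, had 92.3 and 89.4 CPM in WT and 113 and 99.2 CPM in MYC-KI and was not called (log2 fold change 0.22 ± 0.10 SE, adjusted p = 0.192). *Mthfd2*, the mitochondrial dehydrogenase and cyclohydrolase typical of embryonic and dividing cells, had 34.7 and 31.5 CPM in the WT samples against 51.3 and 38.8 CPM in the MYC-KI samples. MYC-KI replicate 2 stood only a little above WT (log2 fold change 0.44 ± 0.17 SE, adjusted p = 0.150), and the log2 fold change was 0.23 without MYC-KI replicate 1 and 0.63, past the call, without MYC-KI replicate 2.

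**Figure D2:**
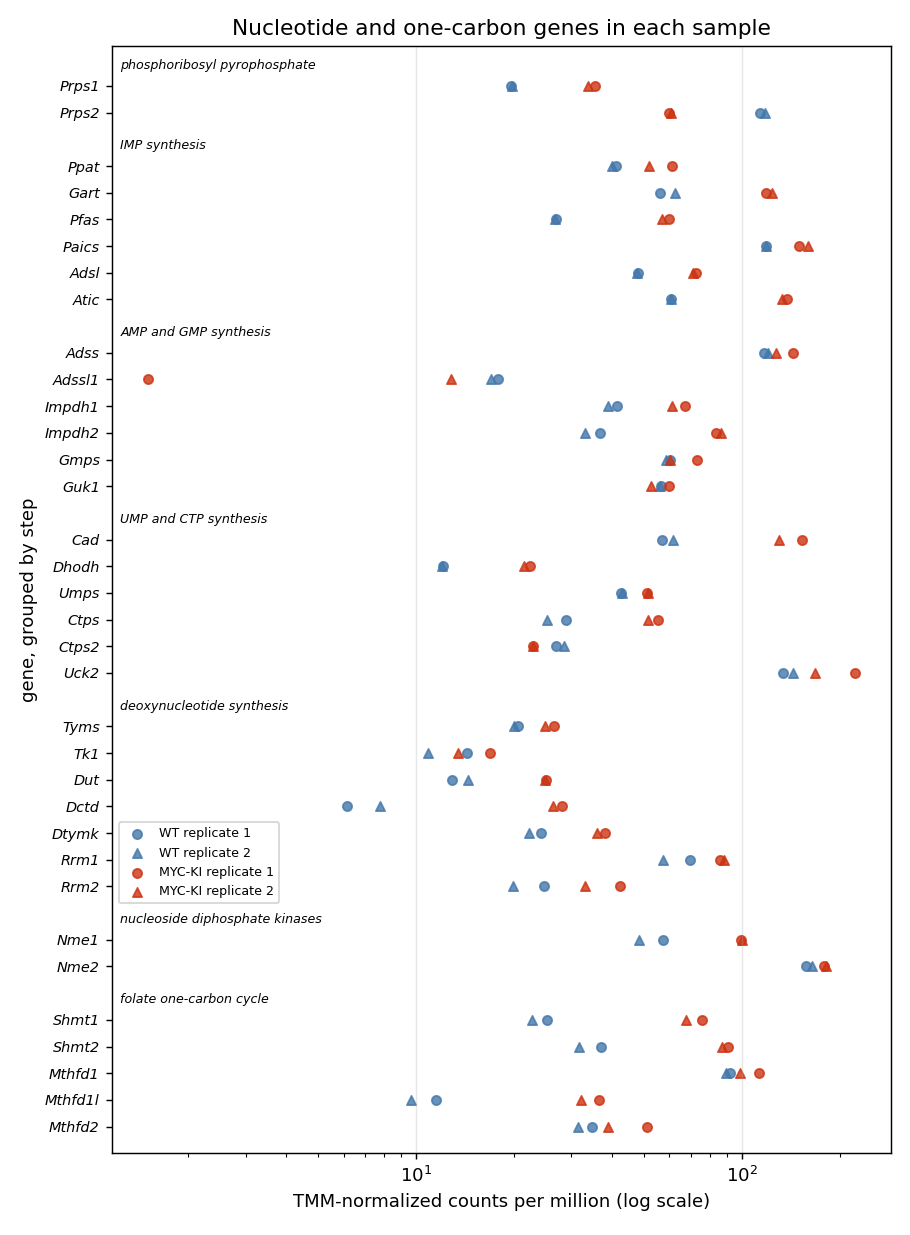
TMM-normalized CPM of the 34 genes in each of the 4 samples (x axis, log scale; y axis, genes by step), blue for WT and red for MYC-KI, circles for replicate 1 and triangles for replicate 2. Red lies right of blue in 28 genes and left of it in *Prps2*, *Adssl1* and *Ctps2*, and the red circle of *Adssl1* stands alone at the left.

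Per length of exon, *Nme2*, *Paics* and *Guk1* were among the most abundant members in both genotypes. In WT the highest mean levels per kb of exon were those of *Nme2* (137.7 CPM per kb), *Paics* (37.9), *Guk1* (30.8) and *Prps2* (29.95), and in MYC-KI those of *Nme2* (154.1), *Paics* (49.3), *Uck2* (35.8) and *Guk1* (30.7). At the low end in WT stood *Dhodh* (1.91 CPM per kb), *Dctd* (2.04), *Mthfd1l* (2.38) and *Tk1* (2.43). *Dctd* (GRCm38 chr8:48099092-48153233, + strand, 8 exon blocks) and *Mthfd1l* (chr10:3973118-4167081, + strand, 30 exon blocks) rose from this end, while *Prps2* (chrX:167346322-167382749, - strand, 8 exon blocks) fell from 29.95 to 15.6 CPM per kb. *Dctd* reached 7.99 and *Mthfd1l* 7.74 CPM per kb in MYC-KI, whereas *Tk1* had 2.93. Exon lengths are those of GENCODE vM21 and the annotation behind the counts is not given in the sources used here, so these levels are approximate.

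Enzymes that share a reaction were then compared by the ratio of their raw counts within each sample, which no scaling between libraries can move. With 2 samples against 2 the smallest p of an exact permutation test is 0.333, so the ratios are given as a description. Some pairs share a gene, and with raw counts only the shift of a ratio between samples can be read, not which gene is more abundant per length. The log2 ratio of *Prps1* to *Prps2* was -2.55 and -2.58 in WT and -0.75 and -0.85 in MYC-KI, so *Prps2* had the larger count in every sample, by a smaller margin in MYC-KI. The ratio of *Ctps* to *Ctps2* moved from 0.10 and -0.17 to 1.27 and 1.18, toward *Ctps*. *Impdh1* to *Impdh2* changed sign, from 0.17 and 0.24 to -0.31 and -0.50. For *Nme1* to *Nme2* the values were -1.46 and -1.77 in WT and -0.85 in both MYC-KI samples. *Mthfd1l* to *Mthfd1* went from -3.01 and -3.21 to -1.63 in both. The serine enzymes *Shmt1* and *Shmt2* moved almost together, with -0.55 and -0.49 in WT and -0.26 and -0.37 in MYC-KI. The small subunit *Rrm2* gained on its p53-inducible counterpart *Rrm2b*, from 0.055 and -0.42 to 1.49 and 0.98, whereas *Tk1* to its mitochondrial counterpart *Tk2* and *Mthfd2* to *Mthfd2l* overlapped between the genotypes.

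**Figure D3:**
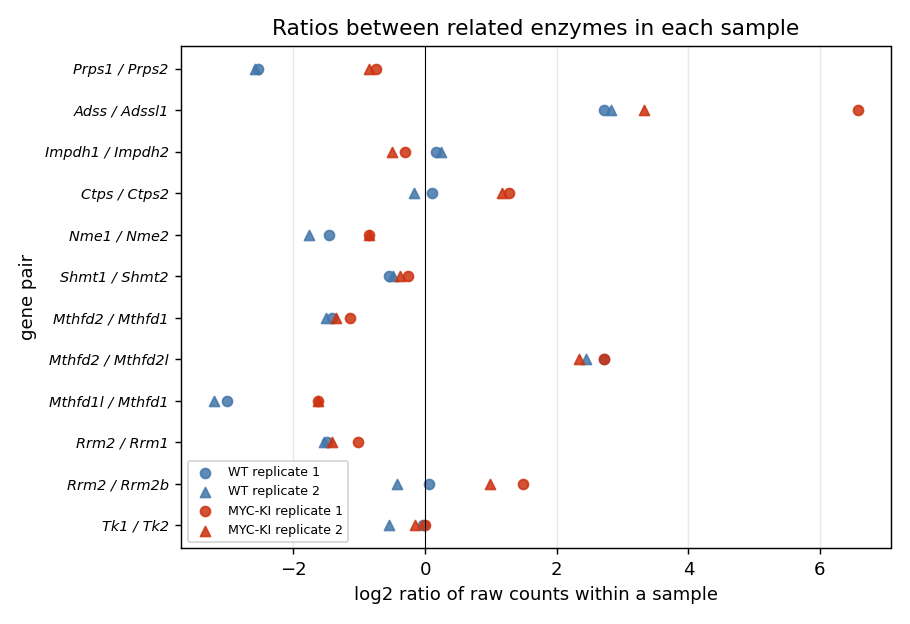
Log2 ratio of raw counts between related enzymes (x axis) for 12 gene pairs (y axis) in each sample, blue for WT and red for MYC-KI, circles for replicate 1 and triangles for replicate 2. *Prps1* to *Prps2* stands at -2.55 and -2.58 in WT and -0.75 and -0.85 in MYC-KI, while *Mthfd2* to *Mthfd2l* and *Tk1* to *Tk2* overlap between the genotypes.

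Promoters were searched for the letters CACGTG, the E-box bound by MYC with MAX, which reads the same on both strands. RefSeq windows of 300 bases (250 before and 50 after the start of the gene, build GRCm38.p6) were matched for 32 of the 34 members, all but *Pfas* and *Dhodh*. The motif was in 6 of these genes (18.8%), in 10.8% of the 12326 tested genes with a window and in 8.09% of all 27025 genes. It was found in 4 of 14 members called higher (*Atic*, *Impdh2*, *Nme1* and *Dtymk*) and in 2 of 18 others (*Paics* and *Tyms*). A match describes the letters only and is no evidence of binding in these samples. The E2F-type sequence TTTCCCGC, on either strand, was in the windows of *Ppat* and *Prps2* (1.96% of tested genes), and TTTGGCGC in none of the members (0.965% of tested genes). The bases around the E-box of the 4 called members are shown to place the motif, 5′ to 3′ on the strand of the gene, with the motif in capitals:

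Atic (chr1:71557138-71557165, + strand): gacctcggggtCACGTGgggtcgacacg
Impdh2 (chr9:108560315-108560342, + strand): agctcgataagCACGTGgttacccagct
Nme1 (chr11:93968274-93968301, - strand): ctgcggggaacCACGTGaggccggggag
Dtymk (chr1:93802066-93802093, - strand): tctcgaacttcCACGTGaccagagcctg

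The place of the motif depends on the start used. Between it and the RefSeq start of its window lay 1 base in *Atic*, 104 in *Impdh2*, 12 in *Nme1* and 142 in *Dtymk*. By GENCODE vM21 the *Atic* gene begins inside the motif, and the motif begins 40 bases after the start of *Impdh2* and 231 bases after that of *Nme1*, in both within an annotated UTR. The log2 fold changes of the 4 genes, 1.16, 1.28, 0.92 and 0.68 in the order shown, lay among those of called members without the motif in the window, such as *Cad* at 1.26 and *Dut* at 0.88. Another RefSeq window of *Nme1* also held the motif, 23 bases before its start.

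The other genes of these pathways were called in both directions. In 6 lists of related genes, 92 genes in all, 87 were tested, of which 6 (6.9%) were called higher and 6 lower, close to the 5.65% and 5.08% of all tested genes. Their median log2 fold change was 0.17. Without WT replicate 1 or without WT replicate 2 none was called, with 18 and 12 higher at an unadjusted p under 0.05 (9.89% and 9.97% of all tested genes) and 16 and 7 lower (9.49% and 8.35%). DESeq2 called 13 higher and 11 lower, and 8.38% and 9.65% of all genes.

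Salvage and breakdown enzymes made up the larger lists. Of 22 purine genes 1 rose and 2 fell, against 5.65% higher and 5.08% lower of all tested genes. *Aprt*, which salvages adenine, had 67.6 and 58.9 CPM in WT and 113 and 106 CPM in MYC-KI (log2 fold change 0.79 ± 0.10 SE, adjusted p = 0.0268). *Adk*, which phosphorylates adenosine, had 48.6 and 57.5 CPM in the WT samples against 33.6 and 36.5 CPM in the MYC-KI samples (log2 fold change -0.60 ± 0.12 SE, adjusted p = 0.0493). *Gmpr*, which turns GMP back into IMP, had 28.5 and 25.5 CPM in WT and 3.77 and 6.94 CPM in MYC-KI (log2 fold change -2.33 ± 0.34 SE, adjusted p = 0.0303). The fall of *Gmpr* stood beside the rise of the IMP dehydrogenases, which work in the opposite direction. The other GMP reductase, *Gmpr2*, did not fall, with 14.9 and 17.2 CPM in WT and 16.1 and 17.98 CPM in MYC-KI (log2 fold change 0.087 ± 0.15 SE, not called). The abundant *Ak3*, *Nt5e* and *Xdh*, a kinase, a nucleotidase and xanthine dehydrogenase, were at -0.14, 0.28 and -0.18 on the log2 scale and were not called. Of 23 tested pyrimidine genes none was called by edgeR, where 6 were higher and 3 lower at an unadjusted p under 0.05 (17.7% and 16.4% of all tested genes). DESeq2 called 3 higher and 1 lower (8.38% and 9.65% of all genes). This list also held genes outside salvage and breakdown. The higher ones included *Nme3*, *Nme4*, *Nme6* and *Nme7* of the nucleoside diphosphate kinase family (log2 fold changes 0.42, 0.75, 0.78 and 0.68). The lower ones included the reductase subunit *Rrm2b* (-0.66). The abundant members had log2 fold changes of 0.24 for the UMP/CMP kinase *Cmpk1*, -0.29 for the nucleotidase *Nt5c3* and 0.10 for *Nt5c*.

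Of 15 tested other folate genes 1 rose and 2 fell, and of 9 tested genes of serine and glycine supply 2 rose and 1 fell, against 5.65% higher and 5.08% lower of all tested genes. *Slc19a1*, the reduced folate carrier, had 16.5 and 13.3 CPM in the WT samples against 65.4 and 40.4 CPM in the MYC-KI samples and rose (log2 fold change 1.83 ± 0.28 SE, adjusted p = 0.0329). The 10-formyltetrahydrofolate dehydrogenases, which burn the one-carbon unit to CO2, both fell. *Aldh1l1* of the cytosol had 118 and 113 CPM in WT and 38.3 and 28.8 CPM in MYC-KI (log2 fold change -1.78 ± 0.16 SE, adjusted p = 0.0188), and *Aldh1l2* of mitochondria had 20.5 and 18.03 CPM in the WT samples against 9.82 and 10.2 CPM in the MYC-KI samples (log2 fold change -0.94 ± 0.15 SE, adjusted p = 0.0335). *Sfxn1*, the mitochondrial serine carrier, *Ggh* and *Fpgs*, which remove and add the glutamate tail of folate, were at 0.54, 0.32 and 0.86 and were not called. In serine synthesis *Phgdh* had 35.4 and 26.1 CPM in WT and 67.7 and 69.7 CPM in MYC-KI (log2 fold change 1.16 ± 0.17 SE, adjusted p = 0.0304) and *Psat1* had 23.1 and 18.2 CPM in the WT samples against 45.7 and 48.9 CPM in the MYC-KI samples (log2 fold change 1.19 ± 0.15 SE, adjusted p = 0.0253). Serine racemase, *Srr*, fell from 35.6 to 20.1 CPM on average (log2 fold change -0.82, standard error 0.15, adjusted p = 0.0394 from edgeR), and *Dld*, *Gldc* and *Gcsh* of the glycine cleavage system, at -0.45, -0.85 and 0.54, were not called.

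In the methionine cycle, which takes its methyl group from folate, *Mtrr*, the reductase that keeps methionine synthase active, had 11.7 and 12.6 CPM in WT and 22.3 and 24.8 CPM in MYC-KI (log2 fold change 0.96 ± 0.14 SE, adjusted p = 0.0302). *Mtap*, which returns adenine and methionine from methylthioadenosine, had 39.8 and 37.2 CPM in the WT samples against 80.8 and 75.2 CPM in the MYC-KI samples (log2 fold change 1.02 ± 0.088 SE, adjusted p = 0.0180). *Cbs*, the entry to transsulfuration, had 12.8 and 13.2 CPM in WT and 5.72 and 4.77 CPM in MYC-KI and fell (log2 fold change -1.31 ± 0.19 SE, adjusted p = 0.0305). The abundant *Ahcyl1*, *Mat2b* and *Ahcy* were at 0.042, -0.11 and 0.84 and were not called. None of 7 nucleoside transporters was called by edgeR, where 1 was higher and 1 lower at an unadjusted p under 0.05 (17.7% and 16.4% of all tested genes). DESeq2 called 1 higher (8.38% of all genes). *Slc29a1*, *Slc29a3* and *Slc28a2* had log2 fold changes of 0.29, -0.38 and -0.22.

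**Figure D4:**
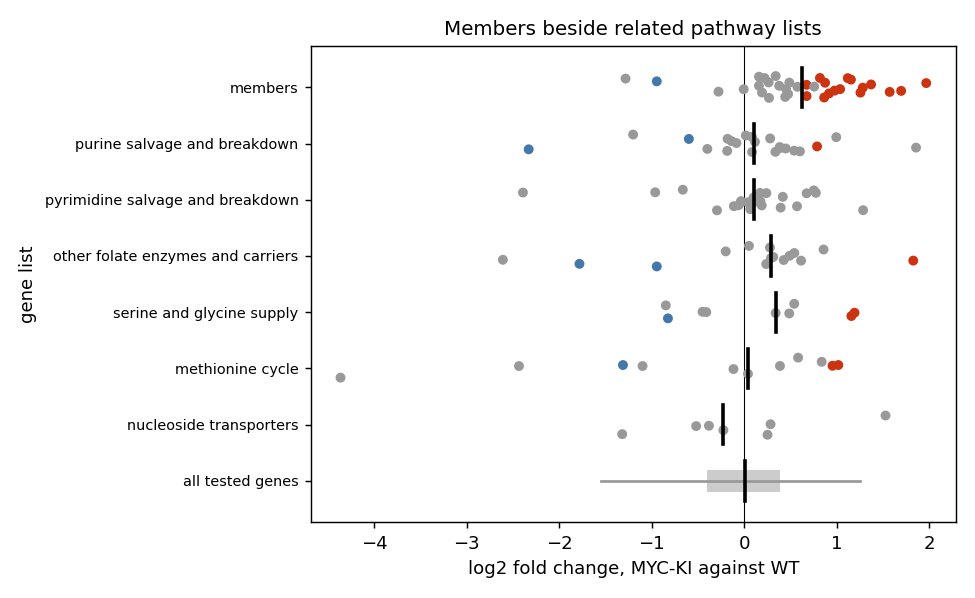
Log2 fold change, MYC-KI against WT (x axis), of the 34 members and of the tested genes of 6 related lists (y axis), 1 point per gene, red called higher, blue called lower, grey not called, with a black bar at the median; for all tested genes the box spans the middle quartiles (-0.40 to 0.39) and the line the 5th to 95th percentile (-1.54 to 1.25). The members' median of 0.63 lies right of the box, and the medians of the related lists lie between -0.22 and 0.34.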

How the data were processed

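Whole stomach RNA was sequenced, and the authors deposited raw counts per gene for 4 samples in a single table. The submitters' processing notes name HISAT2 and mm10. The counter, annotation and strand setting are not given in the sources used here. The series text speaks of triplicates, and 2 samples per genotype were analysed here.

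MYC-KI counts were reassigned to sorted gene names, as the report describes. Genes were kept by edgeR's filterByExpr with a count minimum of 10, TMM-normalized and fitted with genotype alone by the quasi-likelihood test (edgeR 4.0.16, R 4.3.3), on all 17643 genes kept. P-values were Benjamini-Hochberg adjusted, with the threshold of 0.05 and the fold threshold of 1.5. Precision rests on totals of 30260305 to 41463647 counts and 2 samples per genotype. DESeq2 1.42.0, other scalings and filters, a replicate block, leaving out each sample and the table as deposited were alternatives. The scripts were tested on simulated counts.

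The members, the related lists and the marker lists were chosen with earlier results of these data known, and the skeletal muscle, liver and small intestine genes after their values were seen. Named were all members, the called related genes and up to 3 uncalled genes per related list with the highest mean counts. *Acta1*, *Prps1l3* and the counterparts *Rrm2b*, *Tk2* and *Mthfd2l* were named for the comparison they serve. *Ada*, *Slc46a1*, *Gmpr2*, *Nme3*, *Nme4*, *Nme6* and *Nme7* were named after their values were seen. Sharing of 31-base words and exon lengths came from GENCODE vM21 (GRCm38).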

Additional observations from a re-analysis of the deposited data

How the results depend on the processing

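The members called higher and lower (16 and 1), their median log2 fold change (0.63) and the related genes called (6 higher and 6 lower) were recomputed. DESeq2 size factors in edgeR and a minimum of 10 counts in every sample left all 5 within 1.5 times or the replicate spread. DESeq2 itself called 13 related genes higher and 11 lower (8.38% and 9.65% of all genes). Library size without scaling factors moved the median to 0.85, *Guk1* to 0.22 and the related genes called higher to 19 (12.9% of all genes), and over all genes the calls went from 996 higher and 896 lower to 2272 and 739. Without the filter 11 related genes were higher (4.96% of all genes) and *Guk1* was at 0.0096. An absolute log2 fold change above 1 left 9 members higher and 0 lower and 3 related genes lower (2.63% higher and 3.68% lower of all genes, and 1 member lower at an unadjusted p under 0.05). Leaving out 1 sample gave 0 to 21 members higher and 0 to 2 lower, and 0 to 11 related genes higher and 0 to 7 lower, with the values of 0 from either WT replicate. *Guk1* then ranged from -0.094 to 0.083 (0.0024 without WT replicate 1). These fits assume that the lone sample varies like the other group.

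With the replicate block 1 member (*Shmt1*, adjusted p = 0.0490) was called higher and 0 lower, and 0 related genes either way by edgeR, where at an unadjusted p under 0.05 there were 22 and 1 members and 21 and 12 related genes (14.7% and 14.6% of all genes). Over all genes it called 27 higher and 87 lower. Same-numbered samples deviated together with a correlation of 0.0674 across genes. The labels name no batch or day, so whether same-numbered samples shared one is not known. Small intestine genes, given below, summed to more in replicate 1 than in replicate 2 of each genotype.

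In the table as deposited 15 members were lower, the median was -0.54, and 28 related genes were higher and 51 lower (42.7% and 41.5% of all genes). The log2 fold change turned for *Ppat* (-13.44), *Gart* (-0.89), *Paics* (-0.96), *Adsl* (-0.72), *Adss* (-2.01), *Adssl1* (0.31), *Impdh2* (-11.01), *Cad* (-10.41), *Dhodh* (-2.11), *Umps* (-13.51), *Uck2* (-15.21), *Dctd* (-2.95), *Nme1* (-1.64), *Nme2* (-4.71), *Mthfd1* (-0.95), *Mthfd1l* (-0.39) and *Mthfd2* (-0.70).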

Other observations

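Some genes of nucleotide breakdown and transport, picked here for their large difference between replicates, varied with the sample more than with the genotype. Adenosine deaminase, *Ada*, reached 5453 and 1350 counts in the WT samples against 4608 and 1095 in the MYC-KI samples, the proton-coupled folate carrier *Slc46a1* had 1323 and 436 and then 1643 and 394, and the nucleoside carrier *Slc28a2* had 749 and 321 and then 944 and 56. Since they were picked for it, their shared order is a description only. Small intestine genes, chosen after their values were seen, summed to 1320 and 447 CPM in WT and 1343 and 154 in MYC-KI. Their part in the values of these genes was not tested.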
